A study of Mus musculus with 6 samples.

Results

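The genes described here are the WNT pathway genes whose symbols name a Wnt ligand, a receptor or co-receptor, a secreted antagonist, an R-spondin or its receptor, or a core intracellular component of the pathway. They were chosen by symbol among the protein-coding genes, and 62 of the 55401 genes in the count files (21897 of them protein-coding) met that rule. RNA-Seq was performed in NIH3T3 cells, an immortalized line of mouse embryonic fibroblasts, to compare the transcriptome with and without the TAZ-CAMTA1 (TC) fusion protein and to follow it under aurintricarboxylic acid (ATA), a small molecule tested as an inhibitor of the interaction between TC and the TEAD transcription factors. The 6 libraries were 2 of cells with the empty vector kept in the DMSO vehicle (EV), 1 of cells with TC kept in DMSO (TC) and 3 of cells with TC kept in 10 μM ATA for 48 h (TC + ATA). All groups derived from the same parental line, TC came from a vector and not from the endogenous locus, and no library combined the empty vector with ATA, so that an effect of ATA that did not need TC cannot be told apart from one that did.

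Library totals ran from 58471484 to 74413193 counts. Values are given as CPM, the counts of a gene per unit of the TMM-scaled library size. Levels of different genes are compared as CPM per kb of exonic length, except the summed cell type markers, which are in plain CPM. Log2 fold changes (log2FC) are given ± SE. The edgeR quasi-likelihood model was fitted on the 18539 genes that passed the filter on low counts, and a gene was called at a Benjamini-Hochberg adjusted p of at most 0.05. TC had a single library, so no comparison with TC had a replicate check on the TC side, and that library entered both TC versus EV and, in the opposite role, TC + ATA versus TC. The EV libraries were likewise shared by both comparisons with EV. The labels do not say whether libraries of a group came from separate cultures, and p-values then measure only the spread between these libraries. Fibroblast markers fitted the label of the cells, with 9 of 9 above 1 CPM and a summed level of 14611 to 19705 CPM per library, against at most 1.28 CPM for epithelial, 3.75 CPM for endothelial and 6.90 CPM for haematopoietic markers. Of the 5 haematopoietic markers, 2 had a mean of at least 1 CPM. A separate list of 9 T lymphocyte markers, described below, summed to 2.02 to 12.9 CPM per library. Wwtr1, which encodes TAZ, stood at 110.3 and 104 CPM in EV, 139 in TC and 131, 129 and 131 in TC + ATA, but these counts cannot separate the endogenous gene from the transgene. In bulk RNA, fewer cells that express a gene and less of its RNA per cell cannot be told apart.

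Wnt ligands are lipid-modified secreted glycoproteins that bind Frizzled receptors together with the co-receptors Lrp5 and Lrp6. In the canonical branch this stops the destruction complex of Axin, Apc and kinases from degrading β-catenin (Ctnnb1), which then acts with the DNA-binding proteins of the TCF/LEF family. Other branches run through Ror1, Ror2 and Ryk or through planar cell polarity proteins, and Wnt5a is the ligand best known for them. Most secreted Dkk and Sfrp proteins bind co-receptors or ligands and dampen the signal. R-spondins acting on Lgr receptors clear Znrf3 and Rnf43, the ubiquitin ligases that remove Frizzled proteins from the surface. TAZ is itself tied to this pathway in the literature, as a protein that can associate with the destruction complex.

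In TC versus EV, 22 of the 44 WNT genes that passed the filter were called. Of these, 9 were higher, against 14.8% of all genes tested, and 13 were lower, against 13.2%. The higher genes were the ligands Wnt6, Wnt7a and Wnt9a, the receptors Fzd3, Fzd4, Fzd5, Fzd7 and Ror1, and the R-spondin receptor Lgr4. The lower genes were the ligands Wnt1 and Wnt5a, the receptors Fzd1, Fzd8, Ror2 and Ryk, the co-receptor Lrp5, Ctnnb1, Tcf7l1 and the antagonists Dkk2, Dkk3, Sfrp1 and Sfrp2. With the study's added limit of an absolute log2FC of 2, 3 WNT genes were higher (2.36% of all genes) and 3 were lower (1.27% of all genes). The median log2FC of the 44 genes was −0.09, beside −0.03 over all genes tested. The SE and p-values of TC versus EV also carry the spread between the TC + ATA libraries, a group outside this comparison. That spread was smaller than the one between the EV libraries (chi-square per degree of freedom of 5.86 to 6.61 against 61.3). The calls may therefore be more than the spread between EV libraries alone would give. Between TC + ATA and TC, 1 WNT gene was called higher (0.426% of all genes), namely Fzd1, and 0 were called lower (0.156% of all genes).

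Of the 62 genes, 18 did not pass the filter. Wnt3a and Wnt9b had 0 counts in every library, where 3 counts, the floor used here, correspond to 0.0393 to 0.0528 CPM. The other 16 were Dkk1, Dkk4, Fzd10, Lgr5, Nkd1, Nkd2, Rspo1, Rspo2, Rspo3, Rspo4, Sfrp4, Wnt16, Wnt3, Wnt5b, Wnt8a and Wnt8b, with at most 10 counts in any library. None of the 4 R-spondins was therefore measurable at this depth, and the same held for the feedback inhibitors Nkd1 and Nkd2, which are known targets of the pathway. Among the measured genes, the order of levels per kb in EV was led by Ctnnb1 (106 CPM per kb), Fzd2 (45.8), Fzd1 (44.5), Ryk (41.2), Axin1 (36.0) and Dkk3 (31.8). The EV libraries overlapped between Fzd2 and Fzd1, which therefore have no clear order. In TC, the level of Fzd1 was 14.1 CPM per kb and that of Dkk3 was 7.24 CPM per kb.

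The sequences upstream of the start sites are shown for 5 genes called in TC versus EV. Wnt7a and Ror1 had the largest called increase among ligands and receptors, and Fzd1 and Sfrp2 the largest called decrease among receptors and antagonists. Lgr4 was the only tested gene of its role, and the called genes Lrp5, Ctnnb1 and Tcf7l1 of other roles are not shown. The sequences are shown because the TEAD factors act through the short core GGAATG and the TCF/LEF factors through CTTTGAT or CTTTGAA. They come from RefSeq on GRCm38.p6 and cover the 250 bases before the annotated start: Lgr4 at chr2:109917397-109917646 on the plus strand, Wnt7a at chr6:91411354-91411603 on the minus strand, Ror1 at chr4:100095541-100095790 on the plus strand, Fzd1 at chr5:4758217-4758466 on the minus strand and Sfrp2 at chr3:83766071-83766320 on the plus strand. Capitals mark matches of these cores on either strand.
Lgr4: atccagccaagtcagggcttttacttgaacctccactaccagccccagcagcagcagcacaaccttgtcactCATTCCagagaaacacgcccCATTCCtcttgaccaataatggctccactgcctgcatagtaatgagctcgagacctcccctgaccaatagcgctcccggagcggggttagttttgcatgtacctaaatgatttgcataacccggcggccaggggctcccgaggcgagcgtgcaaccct
Wnt7a: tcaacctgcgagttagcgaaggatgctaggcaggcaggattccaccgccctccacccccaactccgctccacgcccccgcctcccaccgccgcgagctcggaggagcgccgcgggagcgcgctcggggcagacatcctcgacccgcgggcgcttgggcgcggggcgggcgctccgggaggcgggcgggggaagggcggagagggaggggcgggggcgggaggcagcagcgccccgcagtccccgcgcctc
Ror1: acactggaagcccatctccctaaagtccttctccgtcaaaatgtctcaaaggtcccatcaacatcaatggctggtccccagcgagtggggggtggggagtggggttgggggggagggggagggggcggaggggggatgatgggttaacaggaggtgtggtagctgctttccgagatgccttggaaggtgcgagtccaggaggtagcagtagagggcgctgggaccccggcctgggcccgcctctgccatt
Fzd1: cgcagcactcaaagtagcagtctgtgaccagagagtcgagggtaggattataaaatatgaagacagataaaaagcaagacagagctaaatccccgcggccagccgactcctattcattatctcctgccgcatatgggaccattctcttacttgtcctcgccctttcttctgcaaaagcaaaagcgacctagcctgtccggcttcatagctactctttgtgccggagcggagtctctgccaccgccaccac
Sfrp2: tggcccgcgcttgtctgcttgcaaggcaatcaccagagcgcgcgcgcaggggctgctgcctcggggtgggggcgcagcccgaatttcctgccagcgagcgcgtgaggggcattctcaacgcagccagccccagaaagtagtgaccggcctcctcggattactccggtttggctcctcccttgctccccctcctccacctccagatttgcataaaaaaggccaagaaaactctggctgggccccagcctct

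Lgr4 had 2 matches of the TEAD core, which read CATTCC on the strand shown and began 178 and 158 bases before the start. The other 4 sequences held neither core, which says only that these letters are not in these windows. Promoters of 41 of the 62 genes were found in the table (51 promoters of 250 bases before to 50 bases after the start). The TEAD core was in 2 of the 51, or 3.92%, against 14.7% of all 32851 promoters of the same length. The TCF/LEF core was in 3 of the 51, or 5.88%, against 8.65% of all promoters. Lgr4 and Wnt5b held the former, and Dkk1, Wnt11 and Wnt5b the latter.

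Among the ligands, 12 of 19 genes passed the filter, 3 were higher (14.8% of all genes tested) and 2 were lower (13.2%) in TC than in EV, and the median log2FC was 0.41. Wnt9a, on chromosome 11 from 59306928 to 59333552, had 4.14 and 4.98 CPM in EV, 27.9 CPM in TC and 24.4, 22.9 and 22.2 CPM in TC + ATA. This was a log2FC of 2.61 ± 0.13 (SE) with an edgeR adjusted p of 1.57e-06. Every library with TC was above both EV libraries by more than the spread within either group. Wnt3a, whose annotation lies 16175 bases from that of Wnt9a, was at 0 in all libraries.

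Wnt7a, on chromosome 6 from 91363981 to 91411363, was close to absent in EV, with 1 and 2 counts, and had 133 counts in TC and 136, 143 and 185 counts in TC + ATA. These were 0.0134 and 0.0262 CPM, then 1.92 CPM, then 2.39, 2.02 and 2.66 CPM. The ratio of TC to EV was 96.5, with a 95% exact interval of 32.3 to 474 that covers counting error only, and the edgeR adjusted p was 1.42e-05. Wnt6 stood at 0.294 and 0.354 CPM in EV, 0.951 CPM in TC and 2.13, 2.00 and 2.26 CPM in TC + ATA. Its log2FC was 1.55 ± 0.33 (adjusted p 0.00758) in TC versus EV, a call that was lost when only the libraries of those groups were fitted (adjusted p 0.0558). Wnt10a, the neighbour of Wnt6 at 6193 bases on chromosome 1, had a log2FC of 0.97 ± 0.59 and no call (adjusted p 0.267).

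Wnt5a moved the other way. It had 29.5 and 29.5 CPM in EV, 19.3 CPM in TC and 17.4, 18.7 and 17.3 CPM in TC + ATA, with a log2FC of −0.61 ± 0.10 in TC versus EV (adjusted p 0.00203). Gm2670, an antisense gene, overlaps 358 of its 7823 exonic bases, and since the use of strand in counting is not stated, reads of such partners cannot be told apart. Overlaps with other genes are also annotated for Lef1, Axin2, Tcf7l1, Fzd6, Wnt7b and Wnt11. Wnt1 had 14 and 13 counts in EV, 0 in TC and 4, 7 and 4 in TC + ATA. Against a floor of 3 counts in the TC library, Wnt1 was at least 4.14-fold lower in TC than in EV (edgeR adjusted p 0.0268), and its adjusted p was 0.107 with the replicate block. The other 7 ligands that passed the filter (Wnt2, Wnt2b, Wnt4, Wnt7b, Wnt10a, Wnt10b and Wnt11) had no call, all at or under 1.47 CPM in each library. Porcn, the enzyme that attaches the lipid to Wnt proteins, ranged from 3.39 to 4.55 CPM over the 6 libraries with no call.

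**Figure D1:**
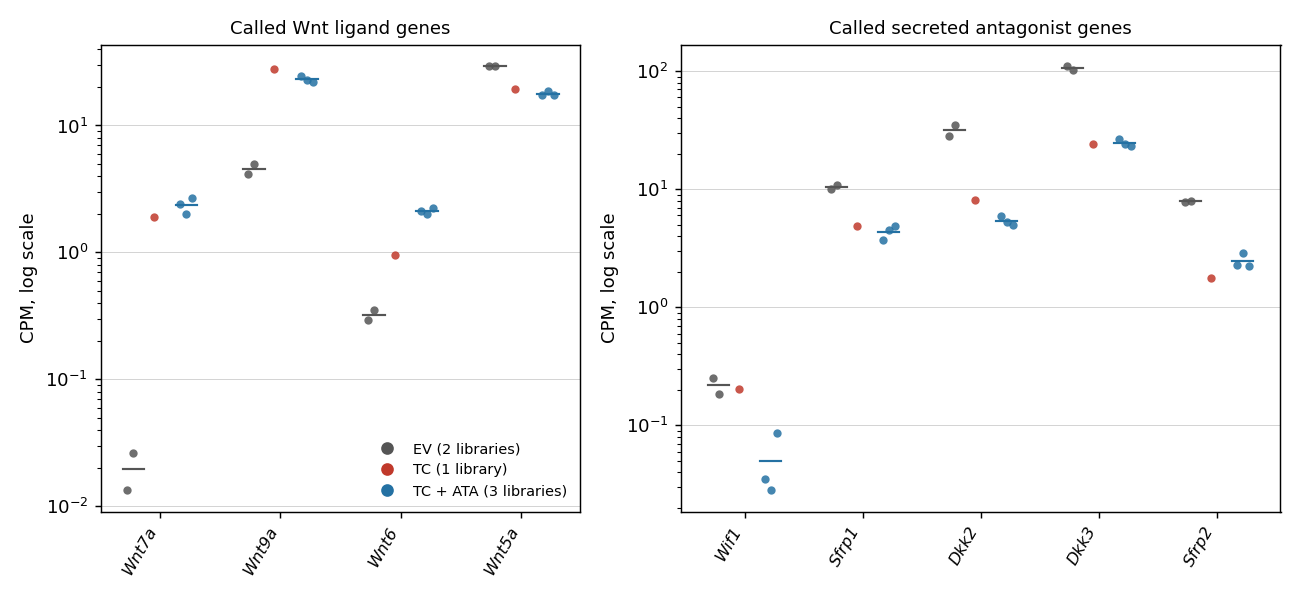
CPM on a log scale for the called Wnt ligand genes (left) and the called secreted antagonist genes (right) in each library, with EV in grey, TC in red and TC + ATA in blue and short lines at the mean of groups with more than 1 library; Wnt1 is left out because the TC library had 0 counts. Wnt9a was at 4.14 and 4.98 CPM in EV and at 22.2 CPM or more in all 4 libraries with TC, while Dkk3 was at 103 CPM or more in EV and at 26.6 CPM or less in the libraries with TC.

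Of the 9 secreted antagonist genes, 6 passed the filter. In TC relative to EV, 0 of them were higher (14.8% of all genes tested) and 4 were lower (13.2%), and the median log2FC was −1.53. Dkk3, a divergent member of the Dickkopf family, had 111 and 103 CPM in EV, 24.3 CPM in TC and 26.6, 24.0 and 23.4 CPM in TC + ATA, a log2FC of −2.13 ± 0.11 (adjusted p 2.50e-06). Dkk2, which binds Lrp5 and Lrp6, had 28.4 and 35.3 CPM in EV, 8.17 CPM in TC and 5.95, 5.28 and 5.02 CPM in TC + ATA, a log2FC of −1.96 ± 0.17 (adjusted p 4.12e-05). For both genes, the lowest EV library was over the highest library with TC by far more than the EV libraries differed from each other.

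Sfrp1 and Sfrp2 encode secreted proteins with a Frizzled-like domain that bind Wnt ligands. Sfrp2 had 7.85 and 7.99 CPM in EV, 1.77 CPM in TC and 2.29, 2.91 and 2.26 CPM in TC + ATA, with a log2FC of −2.16 ± 0.23 (adjusted p 0.00014); the antisense gene Gm26771 overlaps 347 of its 2153 exonic bases. Sfrp1 had 10.1 and 10.8 CPM in EV, 4.90 CPM in TC and 3.70, 4.50 and 4.87 CPM in TC + ATA, with a log2FC of −1.09 ± 0.19 (adjusted p 0.00251). Neither gene overlapped between EV and the libraries with TC. Wif1 and Sfrp5 stayed under 0.26 CPM in every library and had no call in TC versus EV.

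Summed over each family, the levels of antagonists and ligands moved apart. The 9 antagonist genes together had 46.8 and 46.4 CPM per kb in EV, 11.5 in TC and 11.5, 11.1 and 10.6 in TC + ATA, which was 4.05-fold lower in TC than the EV mean. The 19 Wnt genes together had 5.91 and 6.21 CPM per kb in EV, 12.8 in TC and 12.3, 11.9 and 11.5 in TC + ATA, which was 2.11-fold higher in TC. The make-up of the ligand sum differed as well: Wnt5a held 63.8% and 60.7% of it in EV and 19.4% in TC, and Wnt9a held 21.1% and 24.1% in EV and 65.5% in TC. Dkk3 held the largest share of the antagonist sum, with 62.9% to 70.5% in the 6 libraries. It is the divergent Dickkopf gene and was counted here by its name. The antagonist sum therefore mainly follows Dkk3, and whether it dampened the WNT signal in these cells was not tested. No test was made on these sums, since the genes in them were chosen by name and not as replicates.

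**Figure D2:**
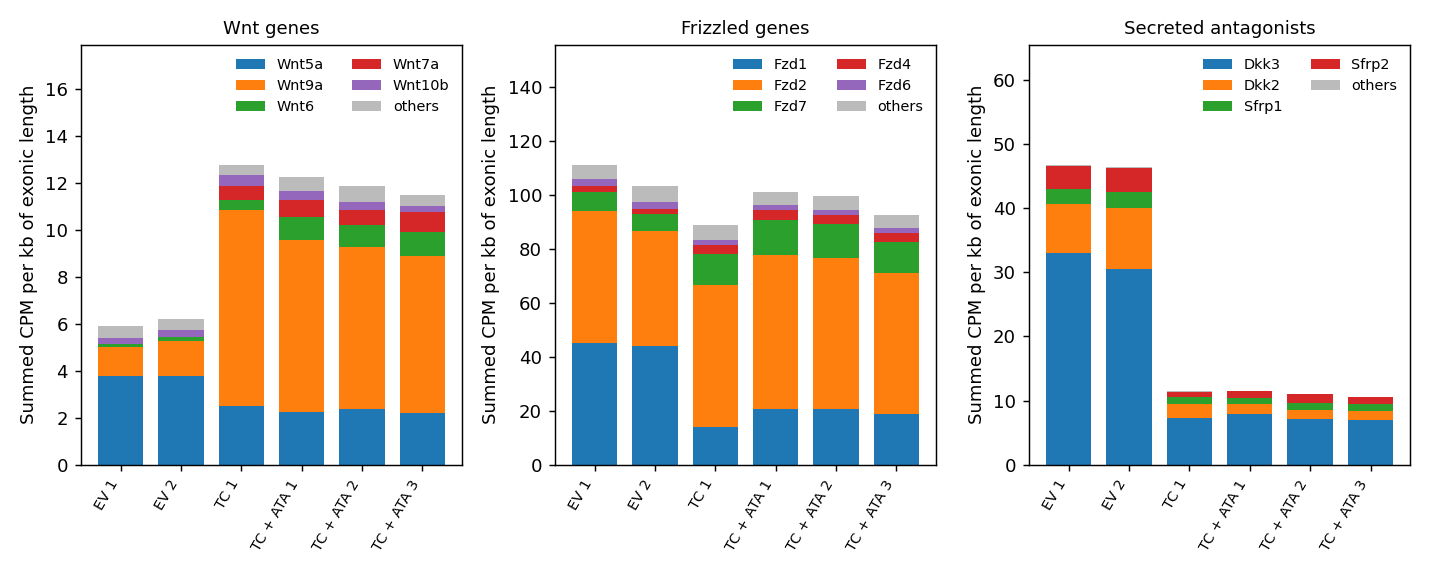
Summed levels per library of the 19 Wnt genes, the 10 Frizzled genes and the 9 secreted antagonist genes, in CPM per kb of exonic length from 0, with the main genes of each family in colour and the others in grey. The antagonist sum was 46.4 CPM per kb or more in EV and 11.5 or less in the libraries with TC, and the Wnt sum was 6.21 or less in EV and 11.5 or more with TC.

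Receptors changed in both directions. Of 13 genes for Frizzled proteins, Ror1, Ror2 and Ryk, 12 passed the filter, 5 were higher (14.8% of all genes tested) and 4 were lower (13.2%) in TC than in EV, and the median log2FC was −0.03. Fzd1, on chromosome 5 from 4753839 to 4758035, had the largest decrease, with 189 and 185 CPM in EV, 59.1 CPM in TC and 86.6, 86.6 and 79.2 CPM in TC + ATA. The log2FC for TC over EV was −1.66 ± 0.09 (adjusted p 3.58e-06). Fzd8 had 18.6 and 18.8 CPM in EV, 12.0 CPM in TC and 13.1, 14.1 and 13.0 CPM in TC + ATA, a log2FC of −0.64 ± 0.11 (adjusted p 0.00259). Both were lower in all 4 libraries with TC than in either EV library.

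Fzd7 had 32.7 and 28.6 CPM in EV, 51.4 CPM in TC and 58.1, 55.7 and 50.9 CPM in TC + ATA, a log2FC of 0.74 ± 0.11 (adjusted p 0.00101). Fzd4, also the receptor for norrin, had 13.7 and 14.1 CPM in EV, 21.9 CPM in TC and 24.5, 23.3 and 22.6 CPM in TC + ATA, a log2FC of 0.66 ± 0.10 (adjusted p 0.00126). Fzd2 was the most abundant Frizzled gene per kb in TC (52.7 CPM per kb) and had no call in TC versus EV, with a log2FC of 0.20 and a 95% interval of −0.03 to 0.44 (adjusted p 0.189). Without EV replicate 1 the log2FC of Fzd2 was 0.30. The Frizzled sum was 111 and 103 CPM per kb in EV, 88.8 in TC and 101, 99.8 and 92.5 in TC + ATA. Fzd1 held 40.4% and 42.6% of that sum in EV, 15.9% in TC and 20.4%, 20.7% and 20.4% in TC + ATA.

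Fzd3 and Fzd5 were called higher by smaller margins, with log2FCs of 0.39 ± 0.11 (adjusted p 0.0249) and 0.45 ± 0.13 (adjusted p 0.0299). Both calls were lost when libraries were scaled by their totals alone (adjusted p 0.118 and 0.143) and when any 1 TC + ATA library was left out: without replicates 1, 2 and 3 the adjusted p was 0.0579, 0.0625 and 0.0615 for Fzd3 and 0.0575, 0.0619 and 0.0702 for Fzd5. Neither Fzd3 nor Fzd5 was called with only the EV and TC libraries fitted or with the replicate block. Exons of Gm38058, a gene on the other strand, overlap 1233 of the 6915 exonic bases of Fzd5. Scaling by library totals shifted the median log2FC of all genes in TC versus EV from −0.03 to −0.13 and gave 11.2% of all genes higher and 17.0% lower; under it 7 WNT genes were higher and 13 lower.

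Ror1 and Ror2, the receptor tyrosine kinases best known for Wnt5a signalling, went in opposite directions. Ror1 had 0.989 and 0.643 CPM in EV, 4.08 CPM in TC and 3.50, 2.65 and 2.95 CPM in TC + ATA, a log2FC of 2.32 ± 0.29 (adjusted p 0.000415). Ror2 had 30.7 and 28.1 CPM in EV, 21.3 CPM in TC and 20.4, 19.4 and 20.4 CPM in TC + ATA, a log2FC of −0.47 ± 0.10 (adjusted p 0.0092). In TC, Ror2 remained the higher of the pair, with 5.02 CPM per kb against 0.708 for Ror1. Ryk had 191 and 182 CPM in EV and 156 CPM in TC (adjusted p 0.0451), and without TC + ATA replicates 1, 2 and 3 its adjusted p was 0.105, 0.128 and 0.100. With only the EV and TC libraries fitted, Ryk, Ror2, Lrp5 and Ctnnb1 were not called (adjusted p 0.405, 0.0578, 0.0723 and 0.456).

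Lgr4, on chromosome 2 from 109917647 to 110014257, encodes the one R-spondin receptor of the rule that was measurable. It had 19.9 and 19.7 CPM in EV, 48.6 CPM in TC and 51.6, 52.8 and 49.8 CPM in TC + ATA. Relative to EV the log2FC in TC was 1.30 ± 0.08 (adjusted p 6.78e-06), and the libraries of each group lay far closer to each other than to those of the other. Of the co-receptors, Lrp5 had 86.6 and 79.3 CPM in EV, 61.6 CPM in TC and 65.8, 68.0 and 58.5 CPM in TC + ATA, with a log2FC of −0.43 ± 0.11 (adjusted p 0.0174). Lrp6 had 148 and 148 CPM in EV, 142 CPM in TC and 156, 154 and 146 CPM in TC + ATA, and its log2FC of −0.06 had a 95% interval of −0.25 to 0.12 (adjusted p 0.607). Znrf3 had 8.14 and 11.7 CPM in EV and 14.0 CPM in TC with no call (log2FC 0.49, adjusted p 0.0898). Without EV replicate 2 its log2FC was 0.78. Rnf43 stayed under 0.36 CPM.

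**Figure D3:**
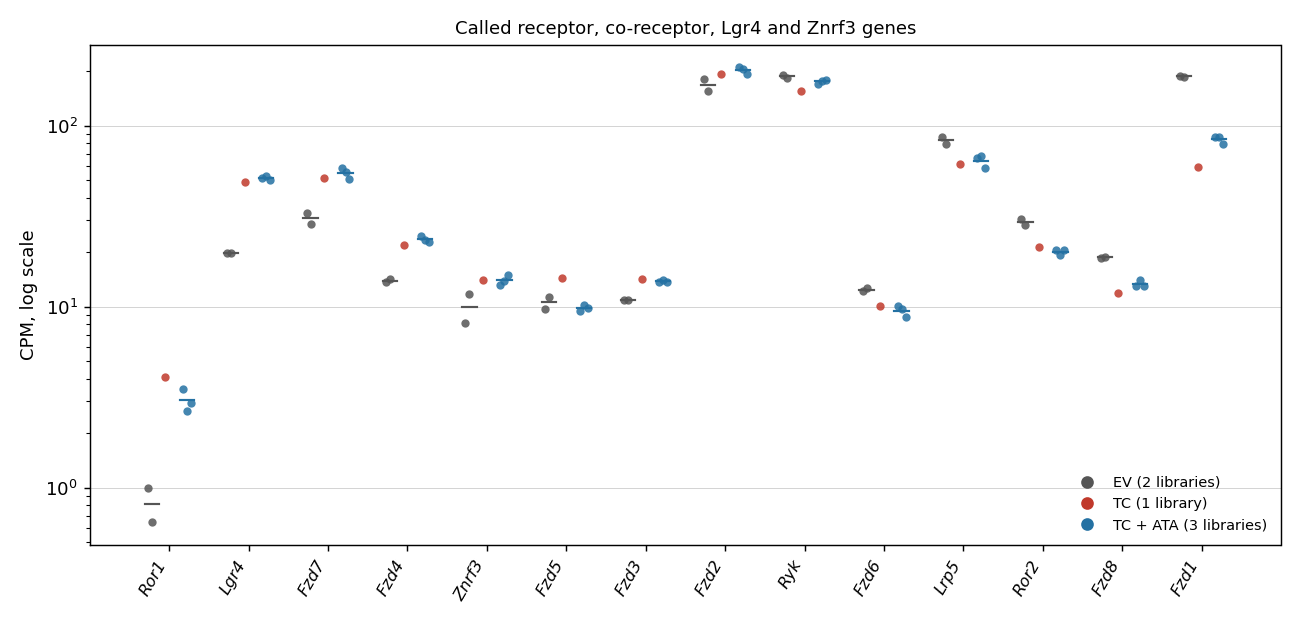
CPM on a log scale in each library for the 14 receptor, co-receptor, Lgr4 and Znrf3 genes called in at least 1 comparison, ordered from the highest to the lowest log2FC in TC versus EV, with EV in grey, TC in red and TC + ATA in blue and short lines at group means. Lgr4 was near 19.8 CPM in EV and at 48.6 CPM or more with TC, and for Fzd1 the TC library at 59.1 CPM lay under all TC + ATA libraries, which lay under EV.

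Among the intracellular genes of the 62, Ctnnb1 and Tcf7l1 were called in TC versus EV. Ctnnb1, the most abundant gene of the 62 per kb in all groups, had 576 and 524 CPM in EV, 448 CPM in TC and 448, 432 and 427 CPM in TC + ATA. Relative to EV this was a log2FC of −0.30 ± 0.10 (adjusted p 0.0469), and without TC + ATA replicates 1, 2 and 3 the adjusted p was 0.115, 0.137 and 0.107. Exons of Ulk4, on the other strand, and of Mir7090 overlap 782 of its 5192 exonic bases. Axin1 had 133 and 143 CPM in EV, 151 CPM in TC and 139.8, 145 and 146 CPM in TC + ATA, with no call (log2FC 0.13, 95% interval −0.06 to 0.32). Apc had 44.9 and 53.2 CPM in EV, 58.2 CPM in TC and 57.3, 54.5 and 57.4 CPM in TC + ATA, with no call (log2FC 0.25, adjusted p 0.124). Without EV replicate 2, the log2FC was 0.18 for Axin1 and 0.37 for Apc.

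Axin2, a direct target of β-catenin and TCF that is widely used as a readout of the canonical branch, was barely expressed. It had 0.348 and 0.341 CPM in EV, 0.202 CPM in TC and 0.334, 0.240 and 0.129 CPM in TC + ATA. Relative to EV the log2FC was −0.77 with a 95% interval of −2.43 to 0.90 (adjusted p 0.494), so a change of a few fold was not detectable at this depth.

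Of the DNA-binding partners, Tcf7l1 (Tcf3), known mainly as a repressor, had 50.0 and 44.0 CPM in EV, 24.9 CPM in TC and 28.0, 31.9 and 26.5 CPM in TC + ATA. Its log2FC of −0.92 ± 0.13 (adjusted p 0.000936) was the only call in the family. Tcf7l2 ranged from 19.4 to 22.2 CPM over the 6 libraries (log2FC −0.02, 95% interval −0.27 to 0.24), and Lef1 ranged from 1.87 to 3.01 CPM. Tcf7 had 1.27 and 2.35 CPM in EV, 2.56 CPM in TC and 0.264, 1.24 and 2.06 CPM in TC + ATA, with the lowest and highest TC + ATA libraries far apart. Tcf7 is also a gene of T lymphocytes. A list of 9 T lymphocyte markers (Cd3d, Cd3e, Cd3g, Cd2, Cd4, Cd28, Lck, Il7r and Trac) was made after the values were seen. All 9 were lowest in the same TC + ATA replicate 1. The share of all genes lowest in that library was not counted, so this is a description only. The summed level of the 9 markers was 10.7 and 7.49 CPM in EV, 5.92 CPM in TC and 2.02, 12.9 and 12.0 CPM in TC + ATA, with no marker at 0 in all libraries. The part of these markers in the Tcf7 values was not tested. Lef1 had 3.01 CPM in TC + ATA replicate 1.

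In TC + ATA versus TC, which addresses whether ATA moved these genes in cells with TC, Fzd1 was the 1 WNT gene called. The p-values of this comparison also carry the spread between the EV libraries, which are not part of it. That spread was larger than the one between TC + ATA libraries (chi-square per degree of freedom of 61.3 against 5.86 to 6.61). The few calls therefore do not show that ATA had little effect. The median log2FC of the 44 genes was 0.04, beside 0.00 over all genes tested. For 13 genes the TC library was the lowest of the 4 libraries with TC (30.5% of all genes tested) and for 16 it was the highest (32.7% of all genes), while for the other 15 the treated libraries lay around it. Fzd1 rose from 59.1 CPM in TC to 86.6, 86.6 and 79.2 CPM, a log2FC of 0.51 ± 0.08 with an adjusted p of 0.0426. That call did not hold without any 1 of the TC + ATA libraries (adjusted p 0.199, 0.256 and 0.133 without replicates 1, 2 and 3) or with the replicate block (adjusted p 0.224). Fzd1 was still lower in TC + ATA than in EV, with a log2FC of −1.15 ± 0.06 (adjusted p 1.80e-06).

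By edgeR, 0 WNT genes were called lower in TC + ATA versus TC, and DESeq2 called 1, Fzd5 (0.55% of all genes). An unadjusted edgeR p under 0.05 was found for 4 genes in the lower direction (Dkk2, Fzd5, Wif1 and Wnt9a). The higher direction also had 4 (Fzd1, Sfrp2, Wnt1 and Wnt6). The share of all genes under that unadjusted limit is not given here. Fzd5 had 9.76 and 11.3 CPM in EV, 14.4 CPM in TC and 9.41, 10.2 and 9.84 CPM in TC + ATA, so that all 3 treated libraries lay below TC and within or under the EV range. Relative to TC the log2FC was −0.56 ± 0.12 (edgeR adjusted p 0.109), and without EV replicates 1 and 2 the adjusted p was 0.00533 and 0.00651. Dkk2 had a log2FC of −0.60 ± 0.15 (adjusted p 0.173; 0.00795 and 0.0108 without EV replicates 1 and 2), which was also the direction of TC relative to EV. Wnt6 had a log2FC of 1.16 ± 0.31 (adjusted p 0.192; 0.0356 and 0.0353 without EV replicates 1 and 2), also in the direction of TC versus EV. Ryk, with no call (0.548), passed the limit without EV replicate 1 or 2 (0.0438 and 0.0334). Wnt9a had −0.27 with a 95% interval of −0.53 to −0.01, Dkk3 had 0.02 (−0.20 to 0.24), Lgr4 had 0.08 (−0.10 to 0.26) and Ctnnb1 had −0.04 (−0.24 to 0.16), and for Wnt9a, Dkk3 and Lgr4 both bounds were nearer to 0 than the change of the same gene in TC versus EV.

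**Figure D4:**
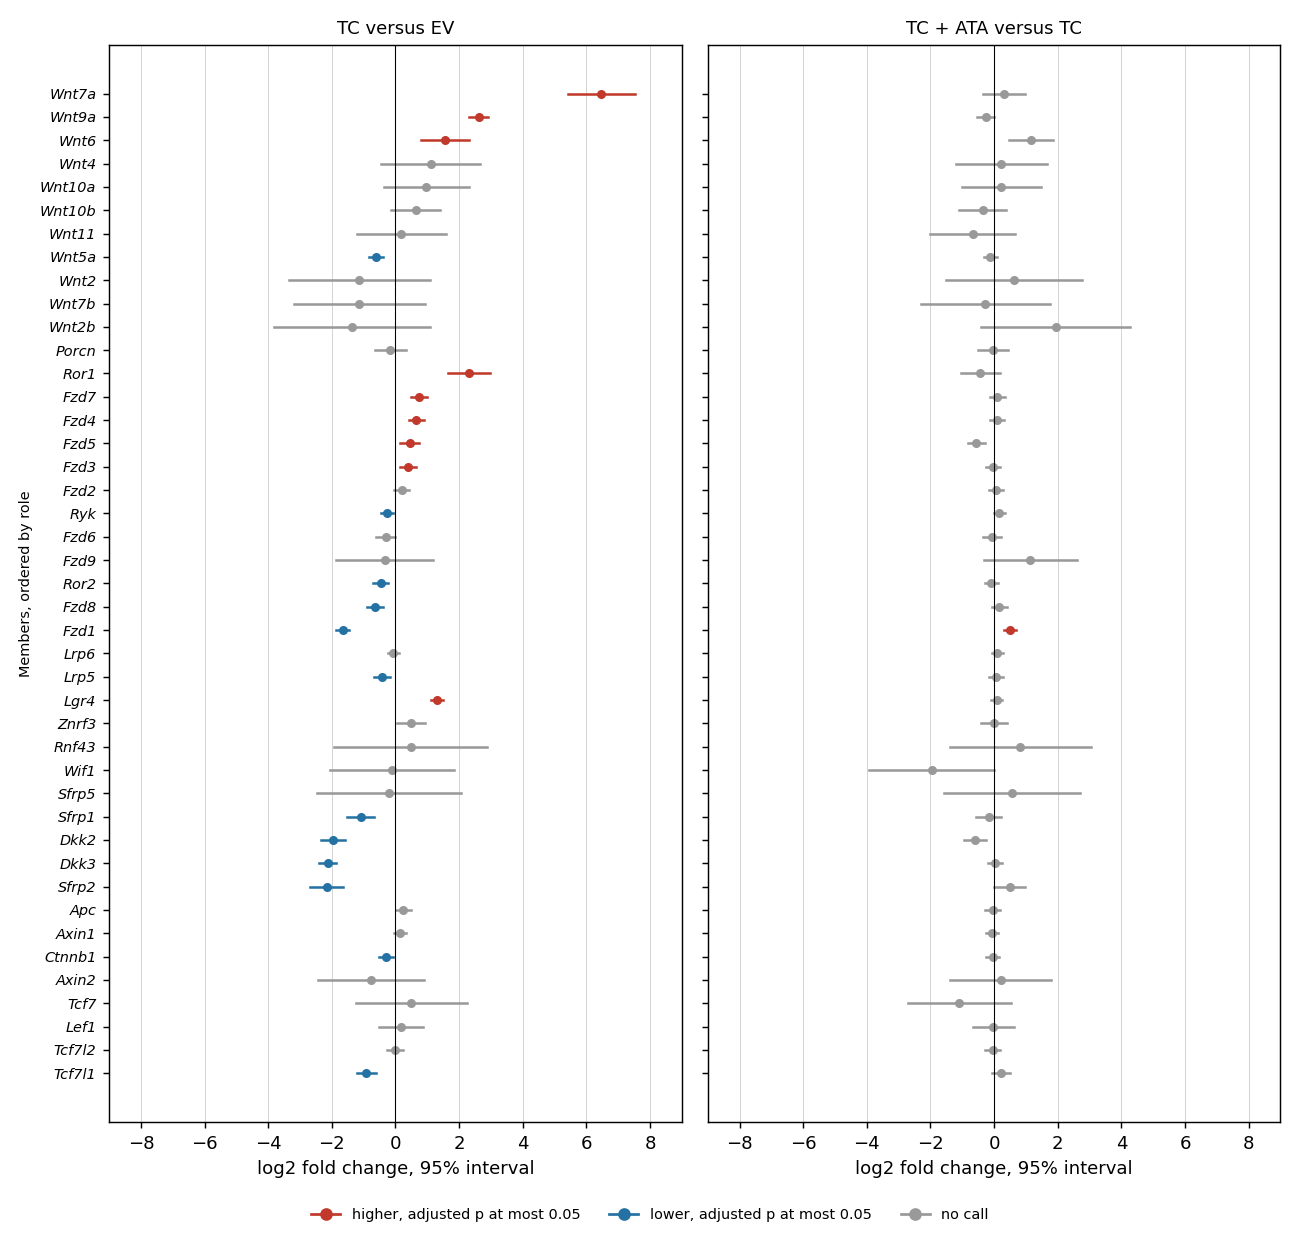
Log2FC with 95% intervals from the edgeR fit for 43 of the 44 WNT genes that passed the filter, ordered by role, in TC versus EV (left) and TC + ATA versus TC (right); red marks genes called higher, blue genes called lower and grey genes with no call, and Wnt1 is left out because the TC library had 0 counts. The left panel holds calls in both directions, with all 4 called antagonists to the left of 0, and the right panel holds the Fzd1 call alone.

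In TC + ATA versus EV, which asks what remained different from EV with ATA present, 10 WNT genes were higher, against 18.0% of all genes tested, and 13 were lower, against 18.6%. The groups of this comparison had 3 and 2 libraries. Each TC-expressing library, treated or not, was above both EV libraries for 13 of the 44 genes (25.4% of all genes tested) and below both for 16 (27.0% of all genes). The log2FC was 2.34 ± 0.11 for Wnt9a (adjusted p 5.82e-07), 2.71 ± 0.26 for Wnt6 (5.97e-05), 1.38 ± 0.07 for Lgr4 (7.77e-07) and 1.89 ± 0.24 for Ror1 (0.000341). It was −2.12 ± 0.07 for Dkk3 (adjusted p 1.75e-07), −2.56 ± 0.12 for Dkk2 (6.15e-07), −1.67 ± 0.15 for Sfrp2 (3.43e-05), −1.26 ± 0.13 for Sfrp1 (9.86e-05) and −0.34 ± 0.07 for Ctnnb1 (0.00497). Fzd2, Znrf3, Fzd6 and Wif1 were called in this comparison and not in TC versus EV, a difference that was not tested. Their adjusted p were 0.0246, 0.0268, 0.0133 and 0.0488. Fzd2 was not called without TC + ATA replicate 1 or 2 (0.102 and 0.101), Fzd6 without TC + ATA replicate 3 (0.0634), Znrf3 without EV replicate 1 (0.077) or TC + ATA replicate 2 or 3 (0.0675 and 0.106), and Wif1, at no more than 0.254 CPM, without any library but TC + ATA replicate 3 (0.0709 to 0.161). Without EV replicate 1, Wnt10a and Wnt4 passed the limit (0.0255 and 0.0252), and without EV replicate 2, Apc, Axin1 and Ryk did (0.000472, 0.0432 and 0.0490). With the replicate block, Ctnnb1, Lrp5 and Fzd3 did not (0.075, 0.0512 and 0.0651), nor did Fzd2 and Fzd6 (0.0581 and 0.105), while Tcf7 did (0.0175).

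The other genes of the pathway were taken from 4 lists of 65 genes, of which 62 passed the filter. In TC versus EV, 11 were higher and 18 were lower, with a median log2FC of −0.13. For all genes tested the shares were 14.8% and 13.2% and the median was −0.03, here as for each list that follows. Among the 15 tested genes for secretion and extracellular modulators, 7 were higher and 2 were lower. Lgr6, a further R-spondin receptor, had 2.27 and 2.57 CPM in EV, 16.9 CPM in TC and 8.32, 6.87 and 7.85 CPM in TC + ATA. Its log2FC was 2.80 ± 0.16 for TC over EV (adjusted p 3.62e-06) and −1.14 ± 0.14 for TC + ATA over TC (adjusted p 0.0115; 0.0601 and 0.0977 without TC + ATA replicates 2 and 3). The treated libraries lay between EV and TC without overlap. Tspan12, a tetraspanin that works with Fzd4, had a log2FC of 2.47 ± 0.24 (adjusted p 8.21e-05), and Gpc6, a glypican, had 2.26 ± 0.10 (1.22e-06). Kremen2, a receptor for Dkk proteins, had 2.49 ± 0.72 at 0.0535 to 0.563 CPM (0.0302; 0.0676, 0.0536 and 0.0569 without EV replicate 1 and TC + ATA replicates 2 and 3).

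In the cytoplasm list, 1 of 21 tested genes was higher (14.8% of all genes) and 6 were lower (13.2%) in TC versus EV. Dact1 and Dact3, which encode partners of Dishevelled, had log2FCs of −1.72 ± 0.23 (adjusted p 0.000566) and −1.35 ± 0.10 (1.46e-05). Tnks2 and Btrc, for a tankyrase that acts on Axin and for the ubiquitin ligase subunit that recognizes β-catenin, had −0.34 ± 0.08 (0.0131) and −0.34 ± 0.10 (0.0253). Btrc was not called without any 1 TC + ATA library (0.0554 to 0.0656), and Tnks2 was not called with only the EV and TC libraries fitted (0.254) or with the replicate block (0.159). Among 14 nuclear cofactors, 1 was higher and 4 were lower, against the same shares. Tle2, a Groucho-type co-repressor, had 36.1 and 61.2 CPM in EV, 8.23 CPM in TC and 12.7, 12.0 and 14.2 CPM in TC + ATA, a log2FC of −2.56 ± 0.29 (adjusted p 0.000225). Pygo1, Aes and Bcl9 had −1.13 ± 0.15 (0.000466), −0.72 ± 0.11 (0.00137) and −0.47 ± 0.09 (0.00491).

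In the planar polarity branch, 2 of 12 genes were higher (14.8% of all genes) and 6 were lower (13.2%) in TC versus EV, with a median log2FC of −0.48. Prickle2 had 5.94 and 5.27 CPM in EV, 1.43 CPM in TC and 1.78, 1.82 and 1.65 CPM in TC + ATA, a log2FC of −1.97 ± 0.23 (adjusted p 0.00026). Daam2, a formin that links Dishevelled to the cytoskeleton, had 103 and 102 CPM in EV, 45.6 CPM in TC and 99.8, 101 and 93.8 CPM in TC + ATA. It fell by 1.17 on the log2 scale in TC versus EV (SE 0.09, adjusted p 1.70e-05) and rose by 1.11 ± 0.08 from TC to TC + ATA (adjusted p 0.00161), which left it 0.06 below EV (95% interval −0.20 to 0.07, no call). Ptk7 and Prickle1 had −0.60 ± 0.09 (0.00132) and −0.59 ± 0.10 (0.00175). Of all genes of the 4 lists, Daam2 was the only one called higher in TC + ATA versus TC (0.426% of all genes tested), and Lgr6 and Adgra2 were the 2 called lower (0.156%). Adgra2 (Gpr124), a co-receptor for Wnt7 ligands with Reck, had 311 and 313 CPM in EV, 344 CPM in TC and 253, 247 and 241 CPM in TC + ATA (log2FC −0.48 ± 0.07 in TC + ATA versus TC, adjusted p 0.0304, not called without any 1 TC + ATA library at 0.177 to 0.256).

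Genes reported as targets of β-catenin and TCF were counted separately. Of 26 such genes (8 of them also among the 62), 21 passed the filter, 9 were higher (14.8% of all genes) and 1 was lower (13.2%) in TC versus EV, and the median log2FC was 0.47 (−0.03 over all genes). The lower gene was Ppard, which falls outside the naming rule and was named after its value was seen. Ccnd1, which encodes cyclin D1, had 216 and 200.4 CPM in EV, 813 CPM in TC and 697, 670.0 and 663 CPM in TC + ATA, a log2FC of 1.96 ± 0.09 (adjusted p 1.15e-06). Plaur, Fosl1 and Tbx3 had 1.88 ± 0.10 (2.39e-06), 1.34 ± 0.09 (8.46e-06) and 1.19 ± 0.14 (0.00028). These genes are known targets of several other pathways as well. Axin2, Lef1, Tcf7, Rnf43 and Znrf3, the genes of the list that were also among the 62 and passed the filter, had no call in TC versus EV. With ATA, 1 of the 21 was lower than in TC (0.156% of all genes tested) and 0 were higher (0.426%). This gene, Sox9, had 54.5 and 56.3 CPM in EV, 47.3 CPM in TC and 33.4, 32.6 and 30.3 CPM in TC + ATA. Its log2FC was −0.56 ± 0.08 (adjusted p 0.0259, and 0.107, 0.165 and 0.174 without TC + ATA replicates 1, 2 and 3).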

How the data were processed

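The 6 RNA-Seq libraries were analysed from the deposited counts, which the authors made from poly(A)-selected, paired-end reads aligned to GRCm38.p6 (mm10 in the submitters' processing notes) by HISAT2 2.2.1 and counted per gene with featureCounts. The counts are raw, and their strand setting and annotation release are not given in the sources used here. Groups came from the sample labels. Positions and exonic lengths came from GENCODE M21, which held 55141 of the 55401 identifiers. edgeR 4.0.16 under R 4.3.3 was used with TMM scaling, filterByExpr, glmQLFit and glmQLFTest, with 1 mean per group and 3 residual degrees of freedom. The SE was derived from the F statistic. This fit was tested on simulated counts with the same dispersion in all groups. That test does not cover the unequal spread of the EV and TC + ATA libraries. Values per library were given for members called in any comparison and for Ctnnb1, Apc, Axin1, Axin2, Lrp5 and Lrp6. From the other lists, up to 4 called genes per list were named by the size of the change, in the comparisons of TC with EV and of TC + ATA with TC. The members and lists were chosen with earlier results of these data known. Every pair of libraries of a group differed by more than sampling noise (chi-square per degree of freedom of 5.86 to 6.61 between TC + ATA libraries and 61.3 between EV libraries). Alternatives were scaling by library totals, DESeq2 1.42.0, all genes with at least 1 count, the compared groups alone, a replicate block and each EV or TC + ATA library left out. Library totals are in the report, and counting intervals cover counting error only.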

Additional observations from a re-analysis of the deposited data

How the results depend on the processing

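In TC + ATA versus TC, the 1 WNT gene called higher (0.426% of all genes) became 3 with only the compared groups fitted (4.42%), 0 with the replicate block (0.173%) and 0 to 3 with 1 library left out (0.0382% to 4.41%). The 0 called lower (0.156% of all genes) became 1 by DESeq2 (0.55%), 2 with all genes of at least 1 count (0.378%), 2 with only the compared groups (3.52%) and 0 to 2 with 1 library left out (0.0164% to 4.14%); the cause was not tested. Deviations of same-numbered EV and TC + ATA libraries had correlations of −0.0296 and −0.148. The 2 EV libraries deviate from their mean by equal and opposite amounts, and the single TC library has no deviation. These values therefore cannot decide whether same-numbered libraries were paired. With only the EV and TC libraries fitted, Wnt6, Fzd3, Fzd5, Ryk, Ror2, Lrp5 and Ctnnb1 were no longer called in TC versus EV. The replicate block called 8 members higher and 10 lower in TC versus EV (9.26% and 7.91% of all genes). It likewise called 8 and 10 in TC + ATA versus EV (13.2% and 11.8%). Some log2FCs changed sign, none of them called in either fit. With the block these were Sfrp5 (0.032) and Tcf7l2 (0.041) in TC versus EV, and Ctnnb1 (0.021), Znrf3 (−0.20) and Dact1 (0.025) in TC + ATA versus TC; with library totals they were Axin1 (−0.031) and Lrp6 (−0.053) in TC + ATA versus EV. With 1 library left out, the ranges that crossed 0 were as follows. For TC over EV, Lef1 ran from −0.073 to 0.45, Tcf7l2 from −0.12 to 0.079 and Wif1 from −0.33 to 0.12. For TC + ATA over TC, Axin2 ran from −0.12 to 0.50, Dkk3 from −0.038 to 0.057, Lef1 from −0.17 to 0.079, Porcn from −0.18 to 0.030, Wnt10a from −0.033 to 0.41, Znrf3 from −0.046 to 0.048, Aes from −0.0017 to 0.050 and Bcl9 from −0.011 to 0.044. For TC + ATA over EV, Axin1 ran from −0.0071 to 0.12, Fzd5 from −0.22 to 0.017, Lef1 from −0.10 to 0.44, Tcf7l2 from −0.16 to 0.051, Wnt2 from −0.93 to 0.020 and Wnt2b from −0.081 to 1.73. The single TC library could not be left out, and genes under 1 CPM had wide intervals. With 1 EV library left out, EV and TC had 1 library each. The spread in those fits came from the TC + ATA libraries alone, so their p-values carry no spread between EV or TC libraries.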
